A study of Mus musculus with 62 samples.

Results

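The ventral striatum (VS), which holds the nucleus accumbens, was compared between mice that had received 10 daily saline injections (chronic saline) and mice that had received 1 (acute saline). The comparison reads the history of handling and injection without ethanol. All 6 VS libraries labelled as saline were taken, 3 chronic (mice 3, 5 and 6) and 3 acute (mice 2, 4 and 6), out of 62 libraries in the series. The mice were male C57BL/6J animals of 8 to 10 weeks, injected intraperitoneally and killed 4 h after the last injection, and poly(A) RNA was sequenced from tissue punched out of frozen coronal slices. The acute and chronic groups were different animals, so mouse 6 of one group is not mouse 6 of the other. The groups used beside them were VS of mice given 2 g/kg ethanol once or on 10 days (3 and 3 libraries), and the dorsal striatum (DS, 3 acute and 2 chronic) and ventral hippocampus (vHPC, 3 and 3) of saline mice. By the mouse named in each library's label, both regions came largely from the same animals as the VS libraries.

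Most neurons of the striatum are GABAergic projection neurons, which carry the D1 or the D2 dopamine receptor and release dynorphin, substance P or enkephalin. Immediate early genes are transcribed within minutes of synaptic activity or a stressor, without new protein, and many encode transcription factors such as Fos that act on a later set of genes, among them neuropeptides, peptide-processing enzymes and growth factors. Corticosterone released under stress acts through the glucocorticoid receptor Nr3c1 on targets such as Fkbp5, Tsc22d3 and Per1. Heat shock proteins of the Hsp70 family fold and refold proteins, and their inducible members Hspa1a and Hspa1b are switched on by heat shock factor.

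The totals on genes ran from 10142093 to 16443179 counts in the 6 libraries. Pearson correlations of log2 CPM (counts scaled to a common library size) between libraries ran from 0.97463 to 0.99012 within a group and from 0.97825 to 0.98913 between the groups, so libraries of one group were no more alike than libraries of different groups. All 18 projection neuron markers were measured, and their summed level was 5528 to 9471 CPM. Ppp1r1b, which encodes the dopamine-regulated phosphatase inhibitor DARPP-32, had 821 to 1243 CPM in the acute and 848 to 1608 CPM in the chronic libraries. Markers of neighbouring tissue differed between the dissections. In bulk tissue, fewer cells of a type and less RNA per cell cannot be told apart. Chronic mouse 5 had 102 CPM over the 12 markers of pallial (cortex-type) excitatory neurons, against 378 to 914 CPM in the other 5 libraries. Chronic mouse 6 had 3010 CPM over 7 measured choroid plexus markers, against 26.0 to 237 CPM in the others, and the defining marker Ttr alone had 2722 CPM there.

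**Figure D1:**
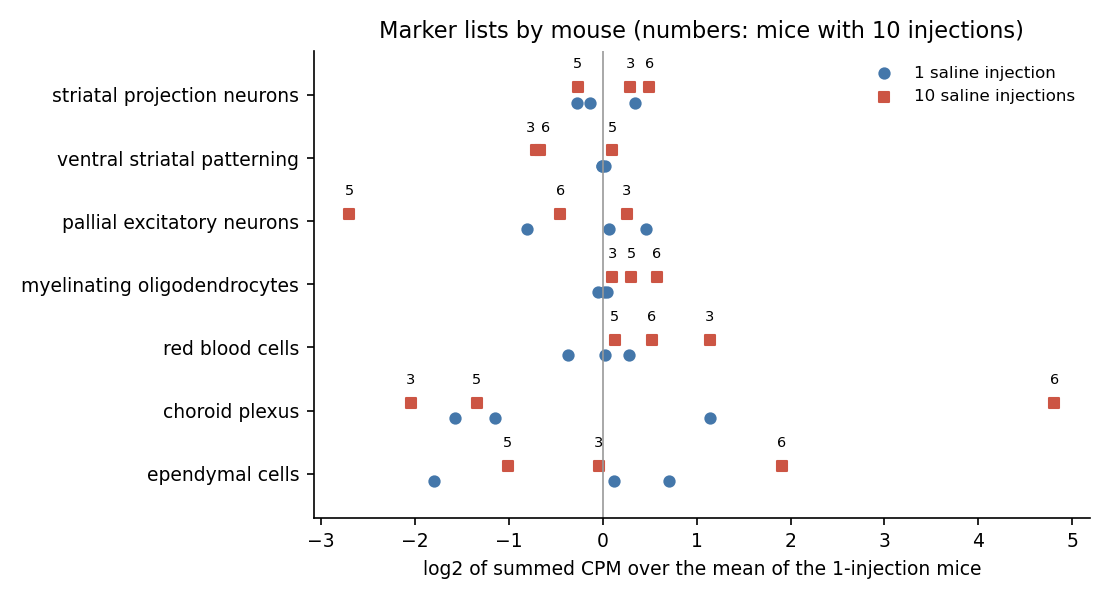
Summed CPM of marker lists in each VS library, as the log2 of its ratio to the mean of the 3 acute saline mice (x axis), for acute (circles) and chronic (squares, mouse number above) mice. Chronic mouse 5 lies at -2.70 for pallial neurons, chronic mouse 6 at 4.81 for choroid plexus, and chronic mice 3 and 6 at -0.71 and -0.67 for ventral striatal patterning genes.

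Promoter stretches are shown for 4 genes of the lists that lay lower after 10 injections. They run from 250 to 51 bases before the RefSeq transcript start, 5′ to 3′ on the strand of the gene. The positions come from an exact match to GRCm39. Capitals mark a cAMP response element (CRE, TGACGTCA, which is its own reverse complement) in Scg2, Pcsk1 and Btg2, and a pair of heat shock repeats (GAANNTTC or TTCNNGAA, each its own reverse complement) in Hspa1a. The stretches lie at chr17:35191183-35191382 (minus strand) for Hspa1a, chr1:79417794-79417993 (minus) for Scg2, chr13:75237726-75237925 (plus) for Pcsk1 and chr1:134006944-134007143 (minus) for Btg2. In the annotation used for the counts, isoform Scg2-201 starts farther upstream, at 79417837. The marked Scg2 CRE lies within the span of that isoform.
Hspa1a: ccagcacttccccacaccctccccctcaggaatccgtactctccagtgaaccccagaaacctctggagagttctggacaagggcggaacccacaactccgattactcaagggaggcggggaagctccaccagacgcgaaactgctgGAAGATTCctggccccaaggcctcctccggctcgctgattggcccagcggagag
Scg2: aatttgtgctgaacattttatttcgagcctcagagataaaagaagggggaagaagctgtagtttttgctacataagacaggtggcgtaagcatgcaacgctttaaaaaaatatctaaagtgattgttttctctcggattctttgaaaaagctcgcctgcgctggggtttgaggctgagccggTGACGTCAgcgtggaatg
Pcsk1: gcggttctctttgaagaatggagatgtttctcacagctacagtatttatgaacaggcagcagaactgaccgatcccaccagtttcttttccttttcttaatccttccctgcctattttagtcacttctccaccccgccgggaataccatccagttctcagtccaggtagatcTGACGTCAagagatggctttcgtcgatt
Btg2: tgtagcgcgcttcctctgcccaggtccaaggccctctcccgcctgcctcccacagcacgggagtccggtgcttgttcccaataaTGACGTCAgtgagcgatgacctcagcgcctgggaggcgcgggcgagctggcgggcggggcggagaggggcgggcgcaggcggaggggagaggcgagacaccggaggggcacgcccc

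The 250 bases before the start held a CRE in 2.86% of the 12507 genes tested that matched the RefSeq promoter table, in 3 of 16 matched rapid immediate early genes (Btg2, Dusp1 and Maff) and in 3 of 21 matched delayed activity genes (Pcsk1, Plk2 and Scg2). The heat shock repeat pair stood in 12.4% of the matched genes and in 8 of 13 matched chaperone genes, Hspa1a and Hspa1b among them. These letter matches are a description and were not tested as binding sites.

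No gene differed between 10 and 1 injection past the threshold of the edgeR quasi-likelihood test (FDR, the Benjamini-Hochberg adjusted p over all genes, below 0.1). Of 20107 genes tested, 0 (0%) were called, and the smallest FDR was 0.334. An unadjusted p under 0.05 was given to 647 genes with higher levels after 10 injections (3.22%) and 538 with lower levels (2.68%). The same genes tested with DESeq2 gave 23 calls (0.114%), 11 higher and 12 lower, while 4690 genes had no adjusted p there. In all 23 the groups did not overlap. Over all genes tested, the groups did not overlap in 1190 with higher levels (5.92%) and 1162 with lower levels (5.78%), and the median log2 fold change was 0.01. The genes below were taken for their small p and are given as values, with the FDR of both tools.

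The lncRNA Neat1 (ENSMUSG00000092274, isoform Neat1-201 at chr19:5874736-5897132, GRCm39), on which nuclear paraspeckles are built, had 41.4, 44.8 and 51.9 CPM in the acute and 79.3, 81.5 and 90.5 CPM in the chronic mice. Every chronic mouse lay above every acute mouse. The log2 fold change was 0.86 ± 0.11 (SE, n = 3 and 3; FDR 0.334 with edgeR and 3.4e-06 with DESeq2). Its long isoform Neat1-201, with 22397 exonic bases, had 13.2, 14.0 and 16.1 CPM against 24.6, 25.6 and 27.8 CPM. The short Neat1-216, with 3042 bases, had nearly the same values, 13.1, 14.0 and 16.1 CPM against 24.4, 25.5 and 27.8 CPM. These counts therefore do not measure the long isoform apart from the short ones. Isoforms share most of their reads, so the isoform table counts one difference several times. On isoforms edgeR called 0 of 107223 (0%), with a smallest FDR of 0.187 and 5606 at an unadjusted p under 0.05, and DESeq2 called 82 (0.0765%), which came from 34 genes.

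Sgpp2, a sphingosine-1-phosphate phosphatase, had 8.48, 10.6 and 8.42 CPM in the acute and 19.4, 22.1 and 19.1 CPM in the chronic mice. The chronic values were about the same in all 3 mice and the groups did not overlap (log2 fold change 1.14 ± 0.15, SE, edgeR FDR 0.334, DESeq2 FDR 7.1e-05). Apod, a lipid-carrying apolipoprotein of glia, had 82.0, 89.4 and 83.4 CPM against 108, 130 and 131 CPM. Col11a2, a collagen XI chain, had 17.8, 18.2 and 21.2 CPM against 32.9, 26.9 and 32.7 CPM. Both were DESeq2 calls (FDR 0.0236 and 0.0556) and neither was an edgeR call (FDR 0.820 and 0.840). Ebf1, a transcription factor of direct-pathway projection neurons, had 8.28, 6.74 and 6.74 CPM against 13.0, 12.6 and 12.2 CPM and was called by neither tool (edgeR FDR 0.840, DESeq2 FDR 0.124). The other genes among the 10 with the smallest p and higher levels were Cobll1, Gm19410, the lncRNA B230206H07Rik, E230025N22Rik and Tspear, with edgeR log2 fold changes of 0.90, 1.70, 1.24, 2.84 and 2.92. Tspear had at most 0.24 CPM in the acute mice and at least 1.31 CPM in the chronic mice, with a mean of 12.7 counts a library.

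Among lower genes, Hspa1a (ENSMUSG00000091971, chr17:35188166-35191132), whose promoter stretch carries the heat shock repeats shown above, had 27.7, 16.4 and 33.5 CPM in the acute and 9.95, 10.3 and 7.57 CPM in the chronic mice. The acute mice were spread and the chronic mice lay close together, without overlap (log2 fold change -1.48 ± 0.25, SE, edgeR FDR 0.820, DESeq2 FDR 0.000136). Its neighbour Hspa1b had 28.7, 13.8 and 31.0 CPM against 9.20, 8.83 and 6.36 CPM. The paralogs are nearly identical and read pairs that mapped to both were counted for both, so their values are not separate measurements.

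Scg2 (ENSMUSG00000050711, isoform Scg2-201 at chr1:79412386-79417837), which encodes secretogranin II, a dense-core vesicle protein and peptide precursor, had 490.1, 445 and 561 CPM against 266, 355 and 271 CPM. It had the most counts of the 20 genes (5236 a library on average), and the highest chronic mouse lay under the lowest acute mouse (log2 fold change -0.75 ± 0.14, SE, edgeR FDR 0.820, DESeq2 FDR 0.000514). Fosl2 (ENSMUSG00000029135, isoform Fosl2-201 at chr5:32293145-32315186), a Fos-family subunit of AP-1, had 55.5, 40.3 and 94.1 CPM in the acute and 24.4, 12.0 and 9.46 CPM in the chronic mice. Its groups did not overlap, although both were widely spread (log2 fold change -2.04 ± 0.38, SE, edgeR FDR 0.820, DESeq2 FDR 0.0983).

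Xlr3b, of an imprinted gene family on the X chromosome with near-identical copies, had 6.31, 7.65 and 3.25 CPM against 0.882, 0.730 and 1.72 CPM (log2 fold change -2.37 ± 0.44, SE, edgeR FDR 0.820, DESeq2 FDR 0.00141). Reads of its copies may be counted in several genes. Phlda1 had 38.3, 32.2 and 39.5 CPM against 23.7, 20.6 and 26.7 CPM. Adam12, a membrane metalloprotease, had 10.9, 11.3 and 12.5 CPM against 5.29, 7.30 and 5.50 CPM. Nt5c1a, a nucleotidase that makes adenosine from AMP, had 5.13, 4.28 and 7.34 CPM against 2.39, 2.04 and 1.98 CPM. The lncRNAs Dbpht2 and Gm15564 completed the 10, with log2 fold changes of -0.54 and -1.11.

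Further DESeq2 calls were picked out after their values were seen. Dusp4, a MAP kinase phosphatase, had 9.27, 10.7 and 15.4 CPM against 5.29, 6.35 and 3.87 CPM. Slit2, an axon guidance ligand, had 36.5, 34.1 and 45.8 CPM against 21.0, 28.9 and 19.6 CPM. Rasgrp2, a Rap exchange factor enriched in the striatum, had 121, 89.6 and 81.3 CPM against 190.4, 135 and 164 CPM. Their DESeq2 FDRs were 0.0607, 0.0983 and 0.0300, with an edgeR FDR of 0.840 for each. Of the 23 DESeq2 calls, 3 (Hspa1a, Hspa1b and Tafa1), all lower, had at least 2-fold higher CPM in cortex than in VS of saline mice, the cortex libraries being of another kit and sequencer, as had 9.25% of the genes tested.

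**Figure D2:**
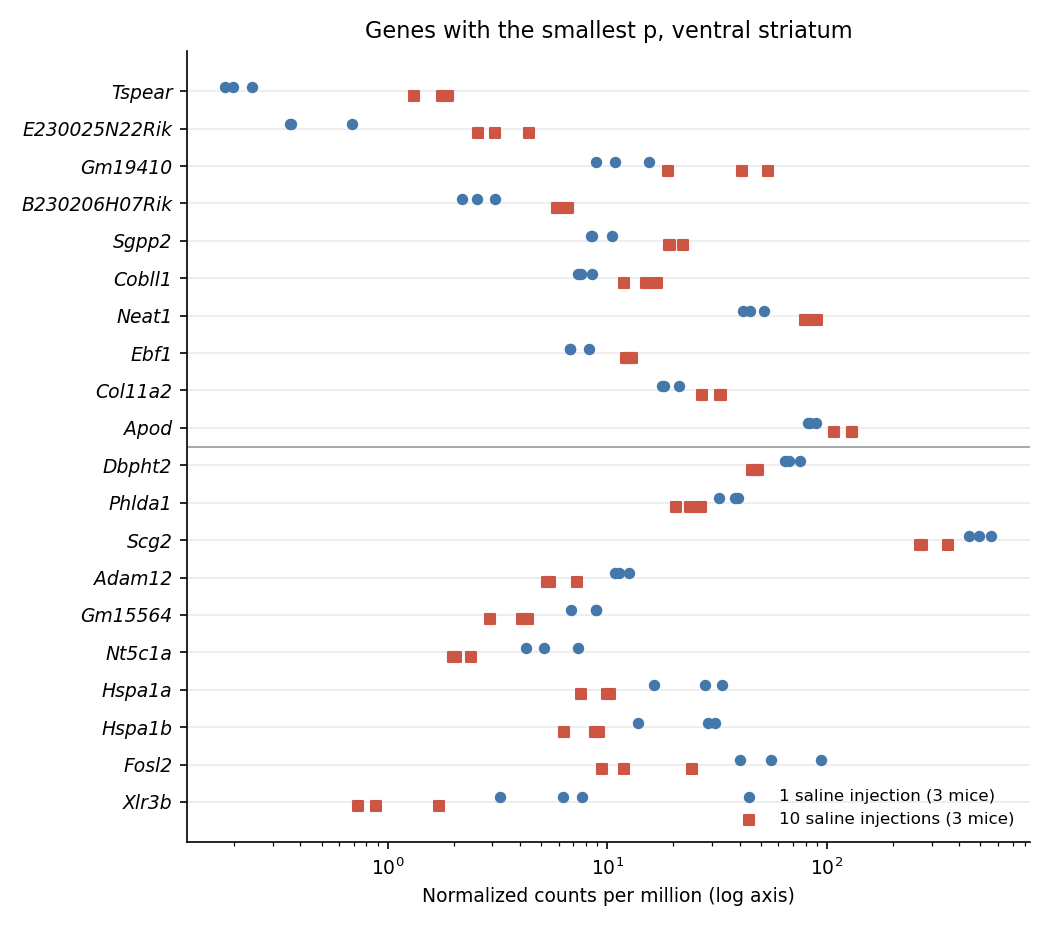
CPM (x axis, log scale) of the 20 genes with the smallest p and no overlap in each direction, in 3 acute (circles) and 3 chronic (squares) saline mice, 1 point a mouse. Genes above the line had higher levels after 10 injections, such as Neat1 (79.3 to 90.5 against 41.4 to 51.9 CPM), and genes below it lower levels, such as Scg2.

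Rapid immediate early genes all had lower mean levels after 10 injections, and none was a call. Of the 20 measured (21 symbols were listed, 2 of them for the same gene), 20 had a log2 fold change under 0, as had 48.4% of all genes. Their median was -0.71, from -1.33 to -0.13, and 5 had an unadjusted p under 0.05 (2.68% of all genes were lower at that p). In those 5 (Fosb, Nr4a1, Klf4, Junb and Jun), already picked by that p, the groups did not overlap (5.78% of all genes were lower without overlap). Fos, the classic activity marker, had 54.0, 33.9 and 55.7 CPM in the acute and 36.0, 2.92 and 20.8 CPM in the chronic mice, so that chronic mouse 3 lay above acute mouse 4 (log2 fold change -1.26 ± 0.61, SE, edgeR FDR 0.843). Nr4a1, an orphan nuclear receptor, had 158, 102 and 167 CPM against 97.7, 30.5 and 57.1 CPM. Fosb had 32.3, 21.5 and 50.4 CPM against 21.2, 7.74 and 13.7 CPM. Arc, which acts at the synapse on AMPA receptor uptake, had 202, 129 and 230 CPM against 146, 32.3 and 127 CPM. Egr3 and Ier5 were the nearest to no difference, with log2 fold changes of -0.20 and -0.13.

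The rapid genes were lowest in chronic mouse 5. Relative to the acute mean, the median over the 20 genes was -0.25, -1.62 and -0.55 on the log2 scale in chronic mice 3, 5 and 6, and 0.11, -0.45 and 0.24 in acute mice 2, 4 and 6. Acute mouse 4 lay below chronic mouse 3. Without chronic mouse 5, the median fold change of the list was -0.37, with 18 of 20 genes under 0 and 7 at an unadjusted p under 0.05. Without acute mouse 6, the median was -0.525, with 20 of 20 genes under 0 and 2 at that p. Chronic mouse 5 also had the fewest pallial neuron transcripts. The rapid genes are expressed in cortex as well, and the part of the dissection in these values was not tested beyond a fit with the pallial marker level as a covariate, in which the list median was -0.63 with 20 of 20 genes under 0.

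Delayed and secondary activity genes, the later wave that includes peptide precursors and growth factors, had lower levels after 10 injections in 24 of 25 genes (median log2 fold change -0.37, from -2.04 to 0.30). An unadjusted p under 0.05 was reached by 10, all lower (2.68% of all genes were lower at that p), and 2 were DESeq2 calls (Fosl2 and Scg2, above). Nr4a3, a nuclear receptor related to Nr4a1, had 35.7, 22.0 and 77.0 CPM against 22.5, 8.32 and 7.05 CPM, with acute mouse 4 just under chronic mouse 3. Bdnf, the neurotrophin, had 6.71, 8.93 and 25.6 CPM against 4.03, 1.90 and 6.71 CPM, with acute mouse 2 and chronic mouse 6 level. Nptx2, a pentraxin that clusters AMPA receptors, had 32.1, 28.1 and 50.4 CPM against 25.6, 11.1 and 19.1 CPM, without overlap. Pcsk1, the prohormone convertase whose CRE is shown above, had 20.7, 25.0 and 44.8 CPM against 22.9, 15.9 and 12.7 CPM, so chronic mouse 3 overlapped the acute group. Vgf, a precursor of secreted neuropeptides, had 238, 206 and 254 CPM against 190.0, 167 and 183 CPM, without overlap (log2 fold change -0.37 ± 0.10, SE, edgeR FDR 0.840). Rgs4, a regulator of G protein signalling, was the single member with a higher mean (log2 fold change 0.30, edgeR FDR 0.850). Without chronic mouse 5, 21 of 25 genes lay under 0, with a median of -0.26. Without acute mouse 6, 23 of 25 lay under 0 (median -0.27), and 5 had an unadjusted p under 0.05, all lower.

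**Figure D3:**
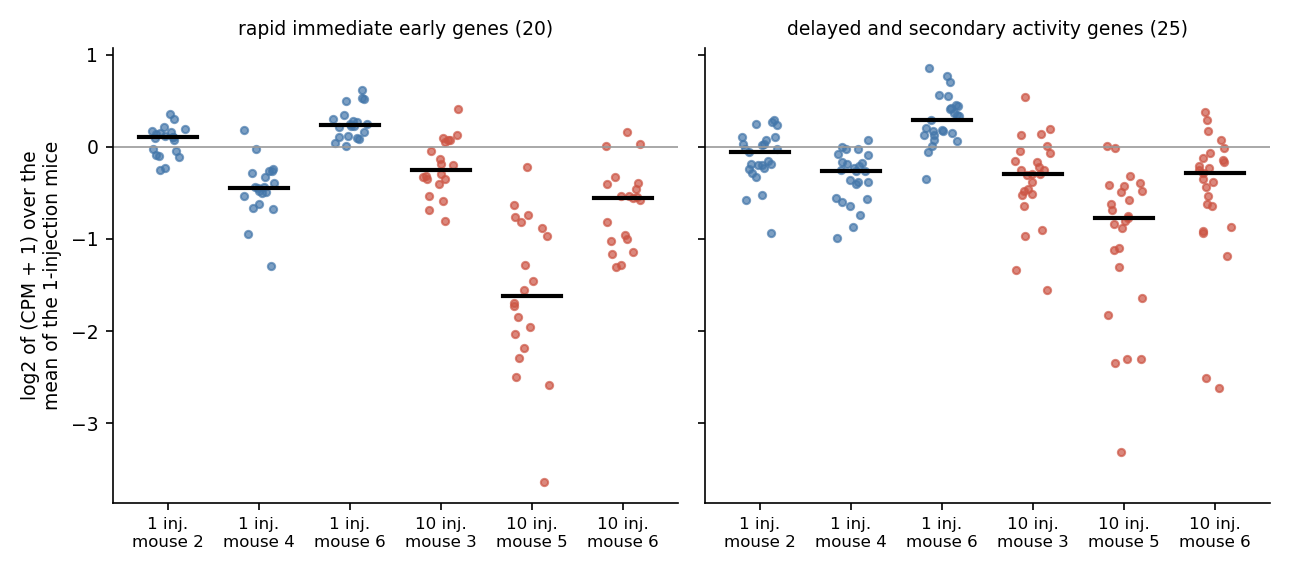
Each point is a gene, as the log2 of (CPM + 1) in a VS library over the mean of the 3 acute mice (y axis), for 20 rapid immediate early genes (left) and 25 delayed activity genes (right), and bars are medians. The rapid genes' medians run from -0.45 to 0.24 in the acute and from -1.62 to -0.25 in the chronic mice, so the medians of acute mouse 4 and chronic mouse 3 cross.

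Glucocorticoid targets lay lower in 20 of 24 genes, with a small median (log2 fold change -0.21) and 4 at an unadjusted p under 0.05, all lower, with no call by either tool. With 1 library left out, the median ran from -0.28 to -0.08 (the latter without chronic mouse 5), and the genes at that p numbered 1 (without chronic mouse 3) to 6 (without chronic mouse 6). Fkbp5, a chaperone that dampens the glucocorticoid receptor, had 52.2, 53.6 and 50.9 CPM in the acute and 37.3, 37.1 and 47.5 CPM in the chronic mice, without overlap (log2 fold change -0.36 ± 0.12, SE, edgeR FDR 0.840, DESeq2 FDR 0.632). Tsc22d3, which encodes the glucocorticoid-induced leucine zipper, had 53.7, 50.6 and 72.9 CPM against 41.3, 51.1 and 42.7 CPM. The metal-binding protein Mt2 had 79.4, 73.1 and 66.5 CPM against 62.5, 59.4 and 75.0 CPM, and the clock gene Per1 had 107, 103 and 159.5 CPM against 118, 72.4 and 105 CPM. Both overlapped between the groups. Nr3c1, the receptor itself, had a log2 fold change of 0.02 ± 0.10 (SE, edgeR FDR 0.997).

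Of the 17 cytosolic chaperones, 13 had lower levels (median log2 fold change -0.11), and 4 had an unadjusted p under 0.05, all lower. Beside Hspa1a and Hspa1b these were Hsph1 and Hspa8. Hspa8, the constitutive Hsp70, had 1688, 1667 and 1923 CPM against 1489, 1546 and 1507 CPM, without overlap (log2 fold change -0.22 ± 0.09, SE, edgeR FDR 0.840). Bag3, an Hsp70 cochaperone of the same stress response, lay the other way, with 5.92, 5.83 and 6.14 CPM against 6.93, 7.30 and 7.57 CPM (log2 fold change 0.28, edgeR p 0.157). Of the 18 genes of the unfolded protein response 17 were lower, at a median of -0.05 (log2), and Hspa5, the Hsp70 of the endoplasmic reticulum, had the only unadjusted p under 0.05, with 315, 223 and 308 CPM against 199, 239.9 and 219 CPM.

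For the 37 nuclear complex I subunits the median was -0.0039 (log2) with 0 at an unadjusted p under 0.05, the 22 cholesterol synthesis genes 0.00047 with 1 (Lss), and the 19 clock genes 0.03 with 2, Dbp and Ciart, both higher. The 13 mitochondrially encoded transcripts had a median of 0.16 with 1 at an unadjusted p under 0.05, the 16 measured interferon and cytokine genes 0.14 with 2, and the 22 measured stress peptides and receptors -0.15 with 2, Cartpt and Trhr, both lower. Cartpt and Trhr also belong to the list of ventral striatal genes described below. Among receptors and scaffolds, the medians were -0.01 for 22 glutamate receptors, -0.09 for 13 GABA-A subunits, -0.13 for 15 postsynaptic scaffolds and 0.17 for 21 dopamine signalling genes, with 0 edgeR calls in each. Pdyn, the dynorphin precursor of D1 neurons, had 182, 164 and 152 CPM against 63.8, 115 and 148 CPM, so all chronic mice lay below all acute mice. Its log2 fold change was -0.61 ± 0.25 (SE, edgeR FDR 0.840), and that of Penk, the enkephalin precursor of D2 neurons, was 0.03 ± 0.16 (SE).

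All 14 myelinating oligodendrocyte markers were higher after 10 injections (median log2 fold change 0.34, from 0.23 to 0.57), 12 of them at an unadjusted p under 0.05 (3.22% of all genes were higher at that p), with no edgeR or DESeq2 call. Summed over the list they had 5915, 5647 and 6035 CPM in the acute and 6290, 7231 and 8754 CPM in the chronic mice, without overlap. Without chronic mouse 6, the highest, the median was 0.23 and 4 of the 14 had an unadjusted p under 0.05. All 5 red blood cell genes had an unadjusted p under 0.05 and were higher (median log2 fold change 0.66), with 415, 497 and 316 CPM in sum against 900.2, 448 and 589 CPM, so chronic mouse 5 lay within the acute range. The globin genes are near-identical pairs that share reads.

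Genes that mark the ventral against the dorsal striatum were lower in 10 of 10 (median log2 fold change -0.64), 4 of them at an unadjusted p under 0.05. With 1 library left out the median ran from -1.17, with 9 of 10 at that p (without chronic mouse 5), to -0.41 (without chronic mouse 3). Their sums were 1324, 1352 and 1324 CPM in the acute and 815, 1432 and 838 CPM in the chronic mice, so chronic mice 3 and 6 were low and mouse 5 was the highest of all. Cartpt, a peptide of the accumbens shell, had 34.0, 36.7 and 36.6 CPM against 4.41, 25.6 and 3.78 CPM. Drd3, the dopamine receptor of the same territory, had 6.02, 4.46 and 4.03 CPM against 1.39, 4.53 and 2.24 CPM. Choroid plexus markers were higher in 7 of 7 measured (median log2 fold change 2.72), but without chronic mouse 6, whose high level is given above, 5 of the 6 measured were lower (median -0.66). Ependymal markers went from 8 of 8 higher (median 0.91) to 7 of 8 lower (median -0.49) without that mouse. Pallial markers were lower in 9 of 12 (median -0.45), and their median was -0.08 without chronic mouse 5. The part of these markers in the values of other genes was not tested, except for the pallial list in the covariate fit above.

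Projection neuron markers were higher in 15 of 18 (median log2 fold change 0.17, from 0.04 to 0.38 with 1 library left out). The dopamine receptor genes overlapped widely, with 244, 151 and 152 CPM against 204, 133 and 218 CPM for Drd1 and 173, 120.3 and 110.4 CPM against 162, 96.3 and 195 CPM for Drd2. Tac1, the substance P precursor, lay without overlap at 183, 147 and 158 CPM against 135, 118 and 145 CPM. Pdyn and Tac1, both peptide precursors of D1 neurons, were the 2 of 18 members lower without overlap (5.78% of all genes were). Drd1 overlapped, and Ebf1, the direct-pathway gene described above, was higher without overlap. Among inhibitory receptors, the GABA-A subunit Gabra2 had 65.3, 59.9 and 68.0 CPM against 43.7, 56.8 and 43.3 CPM (log2 fold change -0.43 ± 0.12, SE, edgeR FDR 0.840).

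Vascular markers lay higher. Of 10 endothelial markers 9 were higher (median log2 fold change 0.21), 2 of them at an unadjusted p under 0.05, and of 10 mural cell markers 8 (median 0.23), with 4 at that p. The mural median was 0.11 without acute mouse 6. Slco1a4, an organic anion transporter of the blood-brain barrier, had 27.7, 30.0 and 37.7 CPM against 49.1, 45.6 and 49.6 CPM, without overlap (log2 fold change 0.59 ± 0.13, SE, edgeR FDR 0.840). Acta2, smooth muscle actin, had 2.76, 3.64 and 2.89 CPM against 4.41, 5.55 and 6.88 CPM. The medians of microglia (0.17), astrocyte (0.12) and oligodendrocyte precursor markers (0.22) were above 0 as well, each with 1 gene at an unadjusted p under 0.05. That of the precursors was 0.05 without chronic mouse 5.

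**Figure D4:**
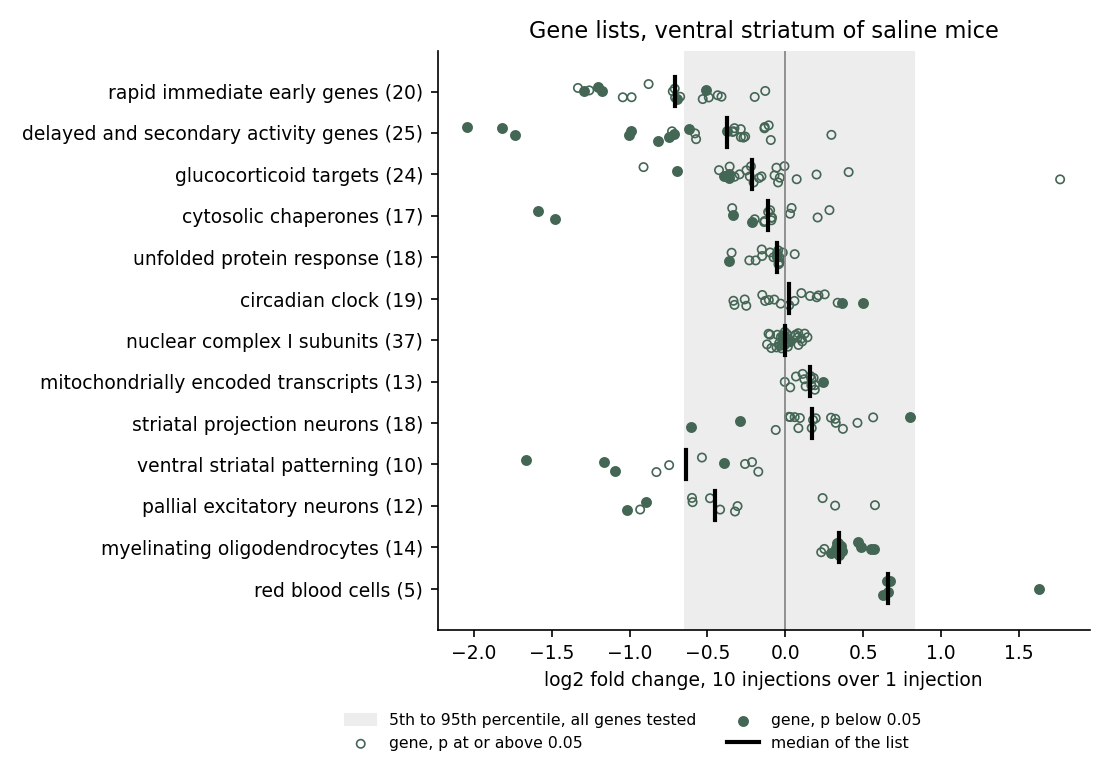
Log2 fold change of 10 over 1 saline injection (x axis) for each gene of 13 lists, with the number measured in brackets, filled where the edgeR unadjusted p is under 0.05. Bars are list medians, from -0.71 for rapid immediate early genes to 0.66 for red blood cell genes, and the grey band holds the 5th to 95th percentile of all genes (-0.65 to 0.83).

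The same number of injections was compared in mice given ethanol, which share no library with the saline mice but differ in ethanol history as well. In these mice edgeR called 0 of 20161 genes (0%) and DESeq2 0, with an unadjusted p under 0.05 in 256 genes with higher (1.27%) and 391 with lower levels (1.94%). Neat1 had 44.4, 50.1 and 54.1 CPM after 1 and 45.7, 37.2 and 31.8 CPM after 10 ethanol injections, so the direction of the saline mice was not seen (log2 fold change -0.37 ± 0.14, SE). The difference between the Neat1 contrasts was 1.23 ± 0.19 on the log2 scale (SE, edgeR FDR 0.298, DESeq2 FDR 6.4e-05). Scg2 had 597, 463 and 541 CPM against 475, 517 and 592 CPM, with overlap, and Fosl2 40.3, 41.5 and 14.4 CPM against 15.9, 27.3 and 47.3 CPM. Hspa1a had 55.0, 21.3 and 9.56 CPM against 9.73, 8.14 and 26.9 CPM, with overlap (log2 fold change -0.95 ± 0.59, SE). Tested across all genes, the saline and the ethanol contrast differed in 0 genes with edgeR (smallest FDR 0.298, 965 at an unadjusted p under 0.05) and in 4 with DESeq2 (Neat1, Prox1, Cobll1 and Gm55524). Rapid immediate early genes were lower in 18 of 20 in ethanol mice (median log2 fold change -0.28, 1 at an unadjusted p under 0.05). Glucocorticoid targets were lower in 20 of 23 (median -0.37), 8 of them at that p. Fkbp5 among them had a log2 fold change of -0.39 ± 0.13 (SE, edgeR FDR 0.999). Myelin markers were lower in 14 of 14 (median -0.34), 8 of them at that p (1.94% of all genes were lower at that p).

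In the DS of saline mice, with 2 chronic libraries left after one that lacked whole chromosomes was dropped, edgeR called 618 of 19473 genes (3.17%), and an unadjusted p under 0.05 was found in 8.2% with higher and 6.86% with lower levels. DS and VS shared 5 mice. Of the 20 named genes, 3 were edgeR calls in the DS (Neat1, Xlr3b and Fosl2), each with the sign it had in the VS. Neat1 had 71.9, 62.8 and 90.6 CPM in the acute and 112 and 164 CPM in the chronic DS libraries (log2 fold change 0.88 ± 0.18, SE, edgeR FDR 0.0461). Fosl2 had 50.1, 34.2 and 80.2 CPM against 23.4 and 8.20 CPM (log2 fold change -1.77, edgeR FDR 0.0759). After 1 injection most of the 20 differed between the regions without overlap. In the acute libraries, Sgpp2 had 30.1, 27.65 and 25.6 CPM in the DS against 8.48, 10.6 and 8.42 CPM in the VS. Scg2 had 233, 293 and 238 CPM there against 490.1, 445 and 561 CPM. For both, the chronic VS mice lay nearer the DS than the acute VS mice did. By group mean the same held for Neat1, Apod, Cobll1, Ebf1, Gm19410, Tspear, E230025N22Rik, Adam12 and Nt5c1a. Neat1 had 41.4 to 51.9 CPM in the acute and 79.3 to 90.5 CPM in the chronic VS libraries. B230206H07Rik lay farther from the DS in the chronic VS mice. Hspa1a, Hspa1b, Fosl2, Xlr3b, Dbpht2, Phlda1, Gm15564 and Col11a2 overlapped between the regions in the acute libraries. The part of the dissection in these values was not tested. Rapid immediate early genes were lower in 18 of 20 in the DS (median log2 fold change -0.72), 10 of them called lower. Choroid plexus markers were higher in 7 of 7 there as well, all called. Myelin markers were also higher in 14 of 14 in the DS (median log2 fold change 0.24), 7 at an unadjusted p under 0.05 and 3 called.

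In the vHPC of saline mice edgeR called 0 of 19695 genes (0%), with a smallest FDR of 0.223 and an unadjusted p under 0.05 in 5.3% with higher and 5.75% with lower levels. Neat1 had 93.8, 93.5 and 32.6 CPM against 51.8, 81.3 and 60.6 CPM, with overlap. Rapid immediate early genes were lower in 16 of 20 (median log2 fold change -0.35) and cytosolic chaperones in 16 of 17 (median -0.36), 9 of them at an unadjusted p under 0.05. Unfolded protein response genes were lower in 18 of 18 (median -0.32), with 10 at that p. Among marker lists, lower levels in the vHPC were found in 7 of 7 for choroid plexus (median -2.71, 7 at that p), 5 of 5 for red blood cells (median -1.24, 5 at that p) and 14 of 14 for myelin (median -0.61, 0 at that p). The part of these markers in the other vHPC values was not tested. The saline contrasts of VS and vHPC differed in 0 genes with edgeR (smallest FDR 0.407, 1869 at an unadjusted p under 0.05), 0 also with the mouse as a block, and in 128 with DESeq2.

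The VS and DS contrasts differed in 1 of 20665 genes with edgeR (1018 at an unadjusted p under 0.05), Cpne6, a calcium-dependent phospholipid-binding copine of neurons. It had 84.1, 118 and 118 CPM in the acute and 70.6, 79.5 and 62.1 CPM in the chronic VS libraries, and 44.2, 38.3 and 36.5 CPM against 80.9 and 80.7 CPM in the DS. The groups did not overlap in either region and their order was opposite (log2 difference of the contrasts -1.63 ± 0.20, SE, edgeR FDR 0.0387). With the mouse as a block, 34 genes differed (11 positive, 23 negative), Cpne6 among them (log2 difference -1.71, edgeR FDR 0.0172), and DESeq2 called 7. Cpne6 was higher in the vHPC, with 369, 416 and 577 CPM in the acute libraries. Pallial markers were lower in 9 of 12 in the VS (median log2 fold change -0.45). In the DS they were higher in 8 of 12 (median 0.25), 3 at an unadjusted p under 0.05 and 2 called. The part of the dissection in the Cpne6 difference was not tested.

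**Figure D5:**
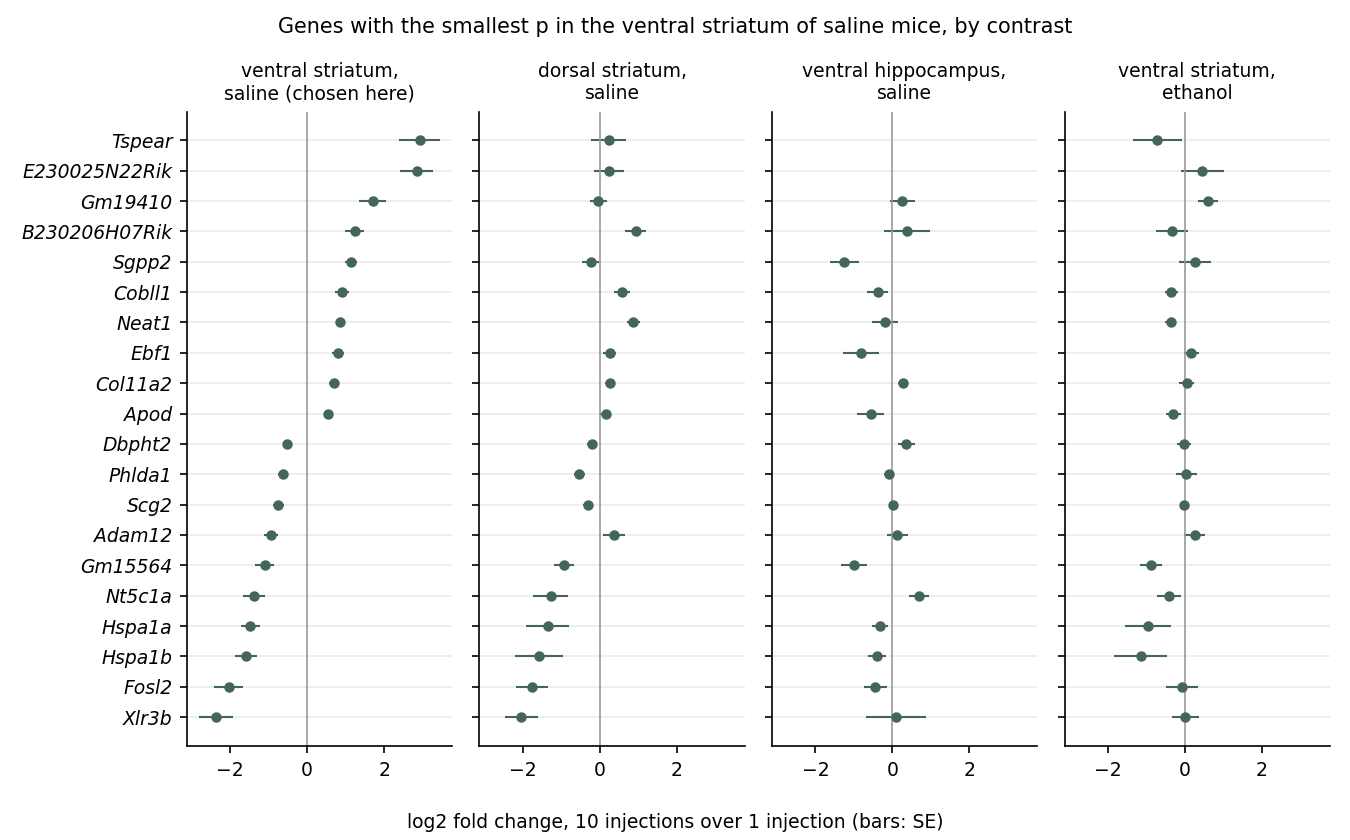
Log2 fold change of 10 over 1 injection with SE (x axis) of the 20 named genes in the VS of saline mice, where they were chosen, and in the DS and vHPC of saline mice and the VS of ethanol mice (E230025N22Rik and Tspear were not measured above the count filter in the vHPC). Neat1 is at 0.86, 0.88, -0.18 and -0.37 in the 4 panels, and Fosl2 at -2.04, -1.77, -0.44 and -0.08.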

How the data were processed

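Poly(A) RNA libraries of the VS, DS and vHPC were prepared with 1 directional kit and sequenced as read pairs. The authors trimmed reads with cutadapt 5.0, aligned them with STAR 2.7.10a to GRCm39, and counted pairs per gene and isoform with featureCounts 2.0.6, by strand, assigning pairs with several matches to each place. The deposited tables hold these raw counts for 56415 genes and 218795 isoforms, without normalization. Intervals of counting error were not needed, since the spread between mice sets the errors, and no libraries were duplicates.

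A gene was tested where 2 or more libraries of one group reached 5 counts, with edgeR 4.0.16 (quasi-likelihood, TMM) in R 4.3.3 on the libraries of each contrast, with DESeq2 1.42.0 as an alternative. A call is an FDR below 0.1. CPM uses TMM-scaled totals. The script was tested on simulated data. Since no gene was called, the 10 genes with the smallest p in each direction, whose mean count was 10 or more and whose groups did not overlap, were named, with Fkbp5, Mt2, Per1, Fos and Nr3c1 and any called list or difference gene. Members and lists were chosen with earlier results of these data known. P-values rest on the spread between mice, with 1 library a mouse in each region. Between regions, 5 mice were shared, and the main fits of a difference between regions took their libraries as independent. The deviations of the shared mice's libraries correlated at -0.029 to 0.292 (VS and DS) and -0.081 to 0.126 (VS and vHPC). As an alternative, the mouse was fitted as a block. Chronic DS mouse 2, which lacks whole chromosomes, was left out. Cortex libraries served only to find genes higher in cortex. Promoter sequences are from RefSeq.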

Additional observations from a re-analysis of the deposited data

Results flagged for a closer look

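The difference between the VS and DS saline contrasts was past the threshold of the interaction test for Cpne6, with a log2 difference of -1.63 ± 0.20 (SE, edgeR FDR 0.0387). Its log2 fold change of 10 over 1 injection was -0.59 ± 0.15 in the VS and 1.03 ± 0.11 in the DS (SE), and the DS value rests on 2 chronic libraries. In the vHPC it was 0.35 and in the VS of ethanol mice 0.13. Cpne6 was also a DESeq2 call and a call with the mouse as a block. The median log2 fold change of the pallial markers was -0.45 in the VS and 0.25 in the DS, and their part in the Cpne6 difference was not tested.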

How the results depend on the processing

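The count of genes called between 10 and 1 saline injection was 0 with DESeq2 size factors in edgeR, a filter of 10 counts in every sample, 1 fit over the 4 VS groups, the pallial covariate, cortex genes left out, and GC and length trends removed. It was 23 with DESeq2 and 133 without a low-count filter (68 higher, 65 lower). Leaving out 1 library gave 0 to 42 calls, the 42 (14 higher, 28 lower) without chronic mouse 5. For isoforms it was 82 with DESeq2 and 0 to 151 with 1 library left out, 151 again without chronic mouse 5. The ethanol contrast gave 0 to 2, 2 without acute ethanol mouse 2. DESeq2 called 4 genes for saline against ethanol, 7 for VS against DS and 128 for VS against vHPC. With the mouse as a replicate block, 34 genes differed between VS and DS and 0 between VS and vHPC. No paired analysis was possible for the VS contrast because its groups were different mice. The causes were not tested.

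With 1 library left out, list medians (log2) ran from -1.11 to -0.37 for rapid immediate early genes (-1.11 without chronic mouse 3, -0.37 without chronic mouse 5), -0.62 to -0.26 for delayed activity genes, -0.22 to -0.05 for chaperones, 0.23 to 0.45 for myelin, 0.40 to 0.87 for red blood cells and -1.04 to -0.08 for pallial neurons. Nr3c1, near 0 throughout, was -0.0061 with GC and length trends removed, and ran from -0.0483 (without acute mouse 4) to 0.0815 (without acute mouse 6) with 1 library left out, also under 0 without chronic mouse 3 (-0.0161). With 3 mice a group and a biological coefficient of variation of 0.192, small differences may lie below what these libraries can show.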
